A study of Schizosaccharomyces pombe with 4 samples.

Results

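The 7 genes sua1, met14, met16, cys11, met6, met17 and met26 encode enzymes that take up sulfur into amino acids in fission yeast (Schizosaccharomyces pombe). They were chosen by name from the rows of type mRNA, with earlier results of these data known. All 7 were found among 5144 such rows and 7015 features in all. RNA was sequenced from cultures kept in mid-log phase at 18 °C for 3 days in YEA, a rich medium. The labels give 4 genotypes with 1 library each, namely wild type and the genomic deletions swd22[delta], ssu72[delta] and clr4[delta]. The labels name no further allele or marker. The genes swd22 and ssu72 encode parts of CPF, the cleavage and polyadenylation machinery that cuts nascent transcripts and adds their poly(A) tails, and clr4 encodes the enzyme that methylates histone H3 at lysine 9 in heterochromatin. The title of the series asks about CPF in heterochromatin and silencing, and these metabolic genes lie outside that question. Every deposited value is a ratio to 1 further library, the same in all 4 files and without a name there. Its strain and growth are not known.

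Yeast makes cysteine and methionine from sulfate. Sulfate is joined to ATP, phosphorylated and reduced to sulfite and then to sulfide. Sulfide is then fixed on acetylated homoserine to give homocysteine, or on acetylated serine to give cysteine, and homocysteine is methylated to methionine. In fission yeast the transcription factor Zip1 acts on genes of sulfur metabolism, and the F-box protein Pof1 directs Zip1 to degradation. Genes of this pathway are widely known to respond to the supply of sulfur amino acids.

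Read numbers were recovered from the deposited ratios and p-values. The libraries held 15282718 reads (labelled wild type), 19630981 (swd22), 24005944 (ssu72), 22839463 (clr4) and 22652585 (unnamed reference). The deleted gene was nearly absent under its label for ssu72 (16 reads against 478 to 740 elsewhere). Under the swd22 deletion label swd22 was lower but not absent (281 reads against 651 to 787), so that this label was checked only in part. The clr4 feature was not depleted under the clr4 deletion label, with 1645 reads there and 1158 to 1445 elsewhere, and it spans 4492 bases, so that this label was not checked by it. The library labelled wild type also stood apart from the other 4 in genes that are not under study here. Of the mRNA features measured in all 3 comparisons with it, 3.01% were at least 2-fold higher in every library labelled as a deletion. Among the genes that stood apart, 2 were looked up as checks. The library labelled wild type had 200 reads of swi6, the heterochromatin protein of the HP1 family, against 3601 to 4431. For ura4, a uracil synthesis gene, it had 6 reads against 1732 to 3961. Directions against this library carry that limit. With 1 library per genotype no test of genotype was possible and no difference has a replicate check. Brackets hold 95% intervals of the log2 difference. They cover counting error only, since PCR copies cannot be told from separate molecules here.

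One of the 7 genes was far from its level elsewhere in 1 library. The gene met17 (chromosome II, 465475 to 467247 on the coordinates of the files) encodes homocysteine synthase, which fixes sulfide on O-acetylhomoserine. It held 5222 reads in swd22, 5446 in ssu72, 8710 in clr4, 5463 in the unnamed reference library and 447 in the library labelled wild type. The library labelled wild type lay below all others, and the library labelled clr4 deletion was the highest. The log2 difference from the library labelled wild type was 3.18 (3.05 to 3.33) in swd22, 2.96 (2.82 to 3.10) in ssu72 and 3.70 (3.57 to 3.84) in clr4. These are 9.09-fold, 7.75-fold and 13.04-fold higher levels. The share of all measured mRNA features that were at least 2-fold higher was 6.48%, 6.1% and 5.4% in these comparisons, and met17 took place 33, 41 and 18 from the top of 5048, 5050 and 5056 of them. Against the unnamed reference library the library labelled wild type was lower, at -3.04 (-3.18 to -2.90), which was place 14 from the bottom of 5043. Of the 3 libraries labelled as deletions, swd22 and ssu72 lay near that reference, at 0.14 (0.089 to 0.20) and -0.086 (-0.14 to -0.032). The library labelled clr4 deletion lay above it, at 0.66 (0.61 to 0.71), which is 1.58-fold. The low reads of swi6 and ura4 in the library labelled wild type moved with the low reads of met17, and their part in the result was not tested. In a bulk culture, fewer cells with a transcript and less of it per cell cannot be told apart.

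Per kilobase of feature and 1000000 reads, the level of met17 was 16.5 in the library labelled wild type against 150.03 in swd22, 128 in ssu72, 215.1 in clr4 and 136.02 in the unnamed reference library. The per-length level placed it 4236th of 5077 mRNA features with known reads in the library labelled wild type. Its place was 757 in swd22, 868 in ssu72, 488 in clr4 and 787 in the unnamed reference library. Against met6, whose enzyme makes the acetylated homoserine that homocysteine synthase uses, the ratio of per-length levels was 0.131 in the library labelled wild type. That ratio was 1.08 in swd22, 0.941 in ssu72, 1.67 in clr4 and 1.28 in the unnamed reference library.

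**Figure D1:**
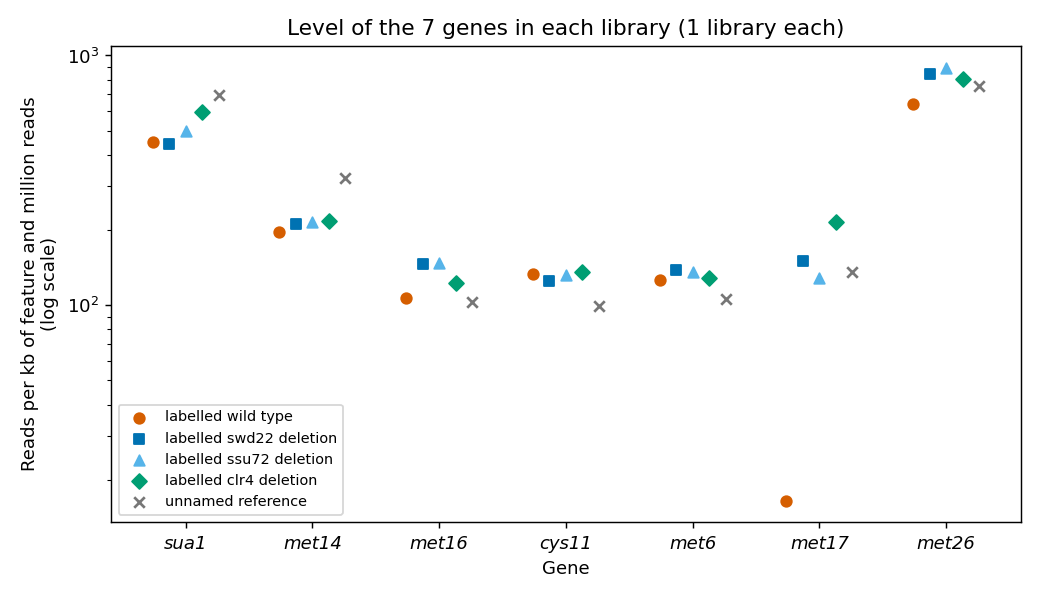
Level per length of the 7 genes (reads per kilobase of feature and 1000000 reads, logarithmic axis) in each of the 5 libraries, 1 point per library. The point of the library labelled wild type for met17, at 16.5, lies far below the other 4 at 128 to 215.1, while the points of each other gene lie close together.

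The stretch before met17 is shown because this gene carries the difference, and those before sua1 and met6 because they are the other members whose windows hold the same letters, TATAAA. They were picked for that after the windows had been seen. The sequences are from RefSeq assembly ASM294v3, which may not be the build of the files, and end at the base before the RefSeq gene start. The starts differ between both annotations. On the numbers as given, the RefSeq start of met17 lies before that of the files, and the sua1 stretch falls inside the sua1 feature of the files. They cover chrII:465130-465379 (plus strand) for met17, chrII:1572969-1573018 (minus strand) for sua1 and chrII:4091249-4091298 (minus strand) for met6, each written 5′ to 3′, and capitals mark TATAAA on either strand.
met17: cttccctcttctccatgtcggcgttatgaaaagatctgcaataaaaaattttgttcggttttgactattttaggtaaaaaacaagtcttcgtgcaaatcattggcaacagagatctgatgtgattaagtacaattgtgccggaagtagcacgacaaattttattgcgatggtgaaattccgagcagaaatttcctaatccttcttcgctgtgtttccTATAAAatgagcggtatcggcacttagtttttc
sua1: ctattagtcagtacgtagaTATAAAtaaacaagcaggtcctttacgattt
met6: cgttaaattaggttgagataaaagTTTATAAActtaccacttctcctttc

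The letters TATAAA began 33 bases before the RefSeq gene start for met17 and 31 bases for sua1. For met6 they began at 170, 26 and 24 bases, of which the last 2 overlap on opposite strands and the first lies outside the stretch shown. In the windows of 250 bases they were found for 3 of the 7 genes and for 44.4% of all 5112 protein-coding windows, and they were searched after the met17 window had been seen. The letters ACGT, the core shared by many basic leucine zipper sites, were found for sua1, met14 and met26 and for 48.8% of all windows. CACGTG, TGACGTCA and TTACGTAA, which contain ACGT, were found in none of the 7 windows and in 1.33%, 0.274% and 0.469% of all windows. Both strands were searched for each. A match describes these letters and not a bound site.

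The 3 genes of sulfate activation and reduction differed by less than 2-fold between all libraries. The gene sua1 (chromosome II, 1571423 to 1573100) encodes ATP sulfurylase, the first step. It held 14612 reads in swd22, 20157 in ssu72, 22787 in clr4, 26387 in the unnamed reference library and 11550 in the library labelled wild type. On the scale of the ratios, the unnamed reference library was the highest and swd22 the lowest, with a log2 range of 0.64. Against the library labelled wild type it stood at -0.022 (-0.057 to 0.013) in swd22, 0.15 (0.12 to 0.18) in ssu72 and 0.40 (0.37 to 0.43) in clr4. Against the unnamed reference library it stood at -0.64 in swd22, -0.47 in ssu72, -0.22 in clr4 and -0.62 in wild type.

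The gene met14 (chromosome I, 4773628 to 4774653) encodes adenylyl-sulfate kinase, which adds the second phosphate. It held 4263 reads in swd22, 5318 in ssu72, 5109 in clr4, 7479 in the unnamed reference library and 3072 in the library labelled wild type. The 4 libraries with labels lay close together and below the unnamed reference library. The differences from that reference were -0.71 (-0.77 to -0.65) for wild type, -0.60 (-0.66 to -0.55) in swd22, -0.57 (-0.62 to -0.52) in ssu72 and -0.56 (-0.61 to -0.51) in clr4. The deletions differed from the library labelled wild type by 0.11 (0.044 to 0.18), 0.14 (0.076 to 0.20) and 0.15 (0.089 to 0.22) in the same order. The whole of met14 lies inside SPAC1782.12c, an mRNA feature on the other strand, and the strand setting of the counting is not given. That feature held 574 to 1273 reads and stood 0.95 above the unnamed reference library in wild type, where met14 stood below it.

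The gene met16 (chromosome I, 2307438 to 2308878) encodes the reductase that turns phosphoadenosine phosphosulfate into sulfite. It held 4145 reads in swd22, 5119 in ssu72, 4034 in clr4, 3376 in the unnamed reference library and 2355 in the library labelled wild type. Both libraries labelled as CPF deletions lay above the other 3. The difference from the library labelled wild type was 0.45 (0.38 to 0.53) in swd22, 0.47 (0.40 to 0.54) in ssu72 and 0.20 (0.12 to 0.27) in clr4. Against the unnamed reference library the values were 0.51 (0.44 to 0.57), 0.52 (0.46 to 0.58) and 0.25 (0.18 to 0.31), beside 0.051 (-0.026 to 0.13) for the library labelled wild type.

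The partner enzymes of sulfide fixation, cys11 and met6, had the smallest log2 ranges of the 7 over all 5 libraries, while without the library labelled wild type that of met26 was smaller. The gene cys11 (chromosome II, 847930 to 849485) encodes cysteine synthase, which takes sulfide to cysteine. It held 3823 reads in swd22, 4934 in ssu72, 4812 in clr4, 3499 in the unnamed reference library and 3182 in the library labelled wild type. The 4 libraries with labels lay close together once scaled, and the unnamed reference library was lowest. The differences from the library labelled wild type were -0.097 (-0.16 to -0.028) in swd22, -0.019 (-0.084 to 0.046) in ssu72 and 0.017 (-0.048 to 0.082) in clr4, of which the last 2 intervals include 0. The gene met6 (chromosome II, 4088686 to 4091252) encodes homoserine O-acetyltransferase. It held 6973 reads in swd22, 8379 in ssu72, 7555 in clr4, 6167 in the unnamed reference library and 4953 in the library labelled wild type. Its differences from the library labelled wild type were 0.13 (0.079 to 0.18), 0.11 (0.056 to 0.16) and 0.029 (-0.023 to 0.081) in swd22, ssu72 and clr4. Its log2 range over the 5 libraries was 0.39 and that of cys11 0.45, both below the median range of 0.57 over the 4941 mRNA features with at least 100 reads in a library.

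The gene met26 (chromosome I, 1478383 to 1481172) encodes the homocysteine methyltransferase that completes methionine, and it was the most abundant of the 7 per length in all 5 libraries. It held 46073 reads in swd22, 59908 in ssu72, 51258 in clr4, 47716 in the unnamed reference library and 27163 in the library labelled wild type. Those are levels, in the same order, of 841, 894, 804, 755 and 637 per kilobase and 1000000 reads. The library labelled wild type was the lowest, though far less so than for met17. The differences from it were 0.40 (0.38 to 0.42) in swd22, 0.49 (0.47 to 0.51) in ssu72 and 0.34 (0.32 to 0.36) in clr4. Against the unnamed reference library met26 stood at 0.16 in swd22, 0.25 in ssu72, 0.094 in clr4 and -0.24 in wild type. Without the library labelled wild type, the log2 range of met26 was 0.25 and that of met17 0.75, beside a median of 0.49 over all mRNA features with at least 100 reads.

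In each comparison with the library labelled wild type, 1 of the 7 genes was at least 2-fold higher and none was lower, and that gene was met17 each time. Over all measured mRNA features, 1.72%, 2.87% and 1.23% were at least 2-fold lower in swd22, ssu72 and clr4, beside the 6.48%, 6.1% and 5.4% that were higher. The median difference of the 7 was 0.13, 0.15 and 0.20, beside medians of 0.032, -0.019 and -0.032 over all measured mRNA features. The 6 genes other than met17 ranged from -0.097 to 0.45 for swd22, from -0.019 to 0.49 for ssu72 and from 0.017 to 0.40 for clr4. These comparisons share the library labelled wild type, and the 7 genes were chosen with earlier results of these data known. With the unnamed reference library in its place, none of the 7 differed 2-fold in any library labelled as a deletion, where 11.2%, 10.8% and 9.87% of mRNA features did. In the library labelled wild type itself, 1 of 7 was lower than that reference and none higher, against 2.86% and 5.43% of mRNA features. Reads of all 7 together made up 0.345% of the library labelled wild type and 0.434% to 0.457% of the other 4. Without met17 these shares were 0.342% and 0.407% to 0.432%. The sums lean on met26, which made up 47.7% to 54.8% of the reads of the 7. Of the 6 genes other than met17, 3 lay above and 3 below the unnamed reference library in wild type.

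**Figure D2:**
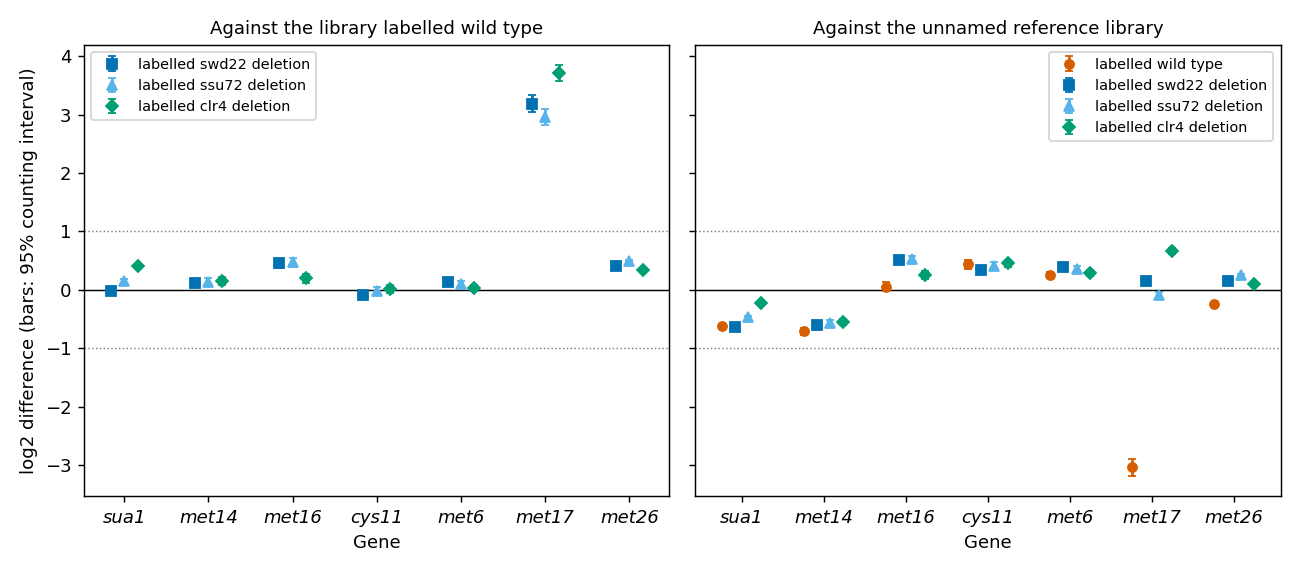
Log2 difference of each gene from the library labelled wild type (left) and from the unnamed reference library (right), with bars for 95% counting intervals and dotted lines at 2-fold. On the left the met17 points stand at 2.96 to 3.70 and all others lie between -0.097 and 0.49, and on the right the met17 point of the library labelled wild type stands at -3.04 and those of the deletions at -0.086 to 0.66.

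Between the libraries labelled as deletions, none of the 7 genes differed 2-fold. The background was 1.57% of mRNA features for ssu72 against swd22, 3.5% for swd22 against clr4 and 3.52% for ssu72 against clr4. The widest of these differences was again that of met17, at -0.75 (-0.80 to -0.70) in ssu72 against clr4, and it was -0.52 (-0.57 to -0.47) in swd22 against clr4. For ssu72 against swd22 it was -0.23 (-0.28 to -0.17). The gene sua1 was lower in swd22 than in clr4, with a log2 difference of -0.42 (-0.45 to -0.39). The gene met16 was 0.26 (0.19 to 0.32) higher in swd22 and 0.27 (0.21 to 0.33) higher in ssu72 than in clr4, and its interval for ssu72 against swd22 included 0, at 0.014 (-0.045 to 0.073). For met14 and met6 the interval of ssu72 against swd22 also included 0, at 0.029 (-0.030 to 0.087) and -0.025 (-0.071 to 0.021).

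The mRNA features next to met17 did not share its difference from the library labelled wild type. The mRNA feature to its left, SPBC428.10, ends 1457 bases away and held 3076 reads in swd22, 3380 in ssu72, 4645 in clr4, 1910 in the unnamed reference library and 2856 in the library labelled wild type. Its differences from the library labelled wild type were -0.25, -0.41 and 0.12 for swd22, ssu72 and clr4. The feature to its right, SPBC428.12c, an RNA-binding protein gene, starts 593 bases away and differed by 0.22, 0.19 and -0.059. The small nuclear RNA gene snu4 overlaps the 3' end of met17 by 15 bases on the other strand and held 5 reads in the library labelled wild type against 12 to 36 elsewhere, which is too few to set a size. The deleted gene clr4 is itself nearby, and its feature ends 6988 bases before the start of met17. Of the 18 mRNA features within 20000 bases, arg12, an arginine synthesis gene, was the only other one at least 2-fold higher in all 3 comparisons, with 2.30, 2.31 and 1.16. Over all mRNA features measured in all 3, the share was 3.01%. It held 14528 to 33892 reads in 4 libraries and 4353 in the library labelled wild type, and it was singled out after its values were seen.

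**Figure D3:**
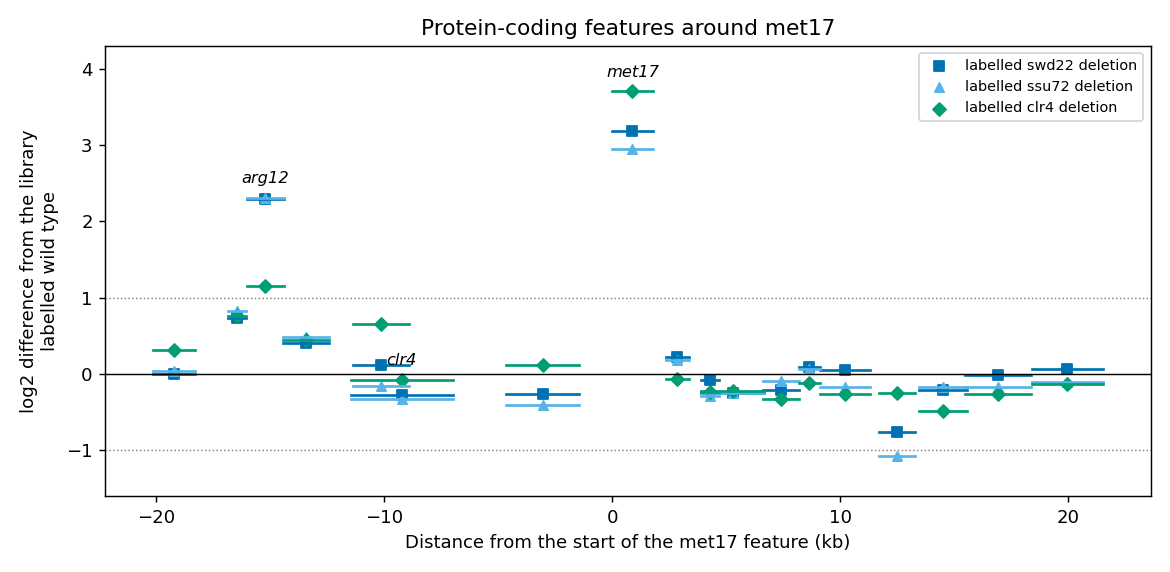
Log2 difference from the library labelled wild type for protein-coding features within 20 kb of met17, placed by distance from the start of the met17 feature, with horizontal lines for the span of each feature and dotted lines at 2-fold. The points of met17 stand at 2.96 to 3.70, those of arg12 at 1.16 to 2.31, and those of clr4 at -0.33 to -0.073.

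Other members share bases with further features. The antisense feature sua1-antisense-1 overlaps sua1 by 735 bases and held 261 reads in swd22, 362 in ssu72, 360 in clr4, 395 in the unnamed reference library and 179 in the library labelled wild type. It lay above the library labelled wild type by 0.18, 0.36 and 0.43 for swd22, ssu72 and clr4, beside -0.022, 0.15 and 0.40 for sua1. The feature is the only antisense one at the 7 loci besides SPAC9.08c-antisense-1, which reaches 67 bases into met26 on its own strand with 114 to 290 reads. The gene cys11 overlaps clr6, a histone deacetylase gene, by 141 bases on the other strand. Downstream of met16 and overlapping it by 16 bases on the same strand lies arb2, which encodes an argonaute-binding protein. The reads of arb2 were 571 in swd22, 446 in ssu72, 890 in clr4, 605 in the unnamed reference library and 576 in the library labelled wild type. The ssu72 value of arb2 was 2-fold lower than that of wild type, at -1.02, where met16 was higher by 0.47.

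A further 23 genes of sulfur metabolism, also chosen with earlier results known, were described beside the 7, all of them measured. Of these, 3 were at least 2-fold higher than in the library labelled wild type for swd22, 2 for ssu72 and 3 for clr4, and none was lower. The shares of all measured mRNA features that were at least 2-fold higher were 6.48%, 6.1% and 5.4%. The median differences of the 23 were 0.22, 0.17 and 0.15. The one at least 2-fold higher in all 3 comparisons was SPAC869.05c, a predicted sulfate transporter (chromosome I, 5505583 to 5508782). It held 875 reads in swd22, 922 in ssu72, 1149 in clr4, 566 in the unnamed reference library and 135 in the library labelled wild type. The library labelled wild type was the lowest, as for met17, and the differences from it were 2.33 (2.07 to 2.61), 2.12 (1.86 to 2.39) and 2.51 (2.25 to 2.78). Against the unnamed reference library this transporter was at -1.50 (-1.78 to -1.22) in wild type. In the libraries labelled as deletions it lay above that reference, at 0.84 (0.68 to 0.99) in swd22, 0.62 (0.47 to 0.78) in ssu72 and 1.01 (0.87 to 1.16) in clr4.

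The gene cys2, annotated as a predicted homoserine O-acetyltransferase, held 3938 reads in swd22, 4749 in ssu72, 6341 in clr4, 5274 in the unnamed reference library and 1673 in the library labelled wild type. Its differences from the library labelled wild type were 0.87 (0.79 to 0.96), 0.85 (0.77 to 0.93) and 1.34 (1.26 to 1.42), so that clr4 alone was past 2-fold. SPCC1827.06c, a predicted aspartate semialdehyde dehydrogenase on the route to homoserine, stood at 1.17 (1.12 to 1.22), 1.11 (1.06 to 1.16) and 0.74 (0.69 to 0.79). A second predicted sulfate transporter, SPCC320.05, stood at 1.14 (1.02 to 1.26), 0.997 (0.88 to 1.12) and 0.85 (0.73 to 0.97). Against the unnamed reference library it was higher in each library, at 0.24 (0.095 to 0.38) in wild type, 1.38 (1.26 to 1.49) in swd22, 1.23 (1.12 to 1.35) in ssu72 and 1.09 (0.97 to 1.20) in clr4. Of the other genes of this predicted transporter family, SPAC24H6.11c was lower than in the library labelled wild type, at -0.44 (-0.52 to -0.37), -0.42 (-0.49 to -0.35) and -0.32 (-0.39 to -0.25), and SPBC3H7.02 stood at 0.12 (0.046 to 0.20), 0.14 (0.072 to 0.21) and 0.76 (0.70 to 0.83). Both were above the unnamed reference library in wild type, at 0.46 and 0.36. In swd22, ssu72 and clr4, SPAC24H6.11c stood at 0.011, 0.033 and 0.14 against that reference. For SPBC3H7.02 these values were 0.48, 0.51 and 1.13, so that it was past 2-fold in clr4. The uroporphyrin methyltransferase gene met1, which serves the siroheme cofactor of sulfite reductase, stood at 0.66 (0.56 to 0.77), 0.53 (0.43 to 0.64) and 1.25 (1.15 to 1.35), with -0.68 in wild type against the unnamed reference library. Among these genes cys2, SPCC1827.06c and SPAC869.05c were also 2-fold lower in wild type than in the unnamed reference library, at -1.09, -1.10 and -1.50. These are 3 of the 23, where 2.86% of mRNA features were lower. The list was chosen with earlier results of these data known, so that such counts are no independent measure. Against the unnamed reference library, 1 of the 23 was higher and 1 lower in swd22, 1 was higher in ssu72 and 3 in clr4. In these comparisons 11.2%, 10.8% and 9.87% of mRNA features were past 2-fold in either direction.

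Most other steps lay within 2-fold. The sulfite reductase subunit genes sir1 and met10 stood at -0.29 (-0.33 to -0.26) and -0.51 (-0.55 to -0.46) in swd22, at 0.18 (0.15 to 0.21) and -0.097 (-0.14 to -0.053) in ssu72, and at 0.21 (0.18 to 0.25) and 0.023 (-0.020 to 0.067) in clr4. The reads of sir1 were solved from the ratios alone, and its intervals rest on that solution. The unnamed reference library held 30664 reads of sir1, and swd22 was more than 2-fold below it, at -1.09 (-1.12 to -1.06). In that comparison 11.2% of mRNA features were past 2-fold in either direction. The gene cys12, which encodes a protein like cysteine synthase, stood at 0.22, 0.32 and 0.28. The methylenetetrahydrofolate reductase genes met9 and met11, whose enzymes supply the methyl group for methionine, stood at -0.42, -0.47 and -0.47 and at -0.055, -0.21 and 0.075. The S-adenosylmethionine synthetase gene sam1 stood at -0.49, -0.44 and -0.19. The regulator gene zip1 held 6939 to 7813 reads in 4 libraries and 3431 in the library labelled wild type, with differences of 0.65 (0.60 to 0.71), 0.54 (0.48 to 0.59) and 0.56 (0.50 to 0.62). Its antagonist pof1 stood at 0.79, 0.59 and 0.84. In wild type against the unnamed reference library, cys12 stood at -0.18, met11 at -0.31, sam1 at -0.37, met10 at -0.23, sir1 at -0.80 and zip1 at -0.52. On the same comparison met9 stood at 0.35 and pof1 at 0.12 (-0.005 to 0.24), so that the library labelled wild type was not below that reference for every gene.

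**Figure D4:**
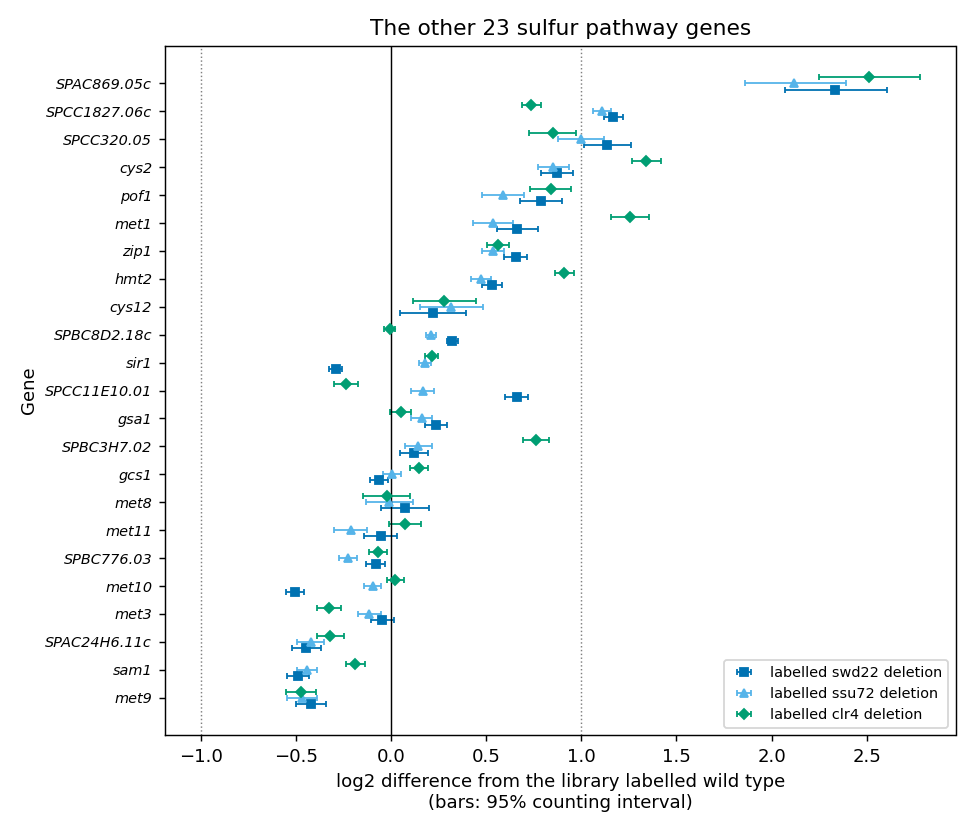
Log2 difference from the library labelled wild type for the other 23 sulfur pathway genes, sorted by their median over 3 comparisons, with bars for 95% counting intervals and dotted lines at 2-fold. SPAC869.05c stands apart at 2.12 to 2.51, and the remaining genes lie between -0.51 and 1.34.

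The genes whose profile over the 5 libraries was nearest to that of met17 were found among the mRNA features with at least 100 reads in a library, by the Euclidean distance of centred log2 levels. The nearest was SPCC330.03c (chromosome III, 109597 to 110654), a predicted NADPH-hemoprotein reductase gene, at a distance of 0.79. It held 1460 to 1880 reads in 4 libraries and 191 in the library labelled wild type. The gene ura4, with 6 reads in that library, lies on the same chromosome at 115589 to 116726. The heterochromatin gene swi6 came next at 0.86, then SPBC1105.13c at 1.01, SPAC869.05c at 1.15 and the predicted NADPH dehydrogenase gene SPAC5H10.10 at 1.23. These profiles share the same libraries, and with 5 points each their likeness is a description only. For the other members the nearest gene lay at 0.046 to 0.14. The distances were not scaled by log2 range, which was 3.70 for met17 and 0.39 to 0.71 for the other members. The larger distances of met17 were thus to be foreseen from its range. The nearest to met16 was pdi2, a protein disulfide isomerase gene, at 0.063, and the nearest to met6 was swp1, an oligosaccharyltransferase subunit gene, at 0.046. No member was among the 5 nearest of another member.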

How the data were processed

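Total RNA was sequenced from 4 cultures, per the labels' protocols, with the ScriptSeq kit on an Illumina NextSeq instrument. Per the submitters' processing notes the tools included Trimmomatic and STAR, with a genome build and a ratio program not given in the sources used here. Each deposited file pairs a log2 ratio with a p-value for every feature, per the file headers. The deposited log2 values have 1 unnamed library as their common denominator. The deposited p-values compare the reads of those libraries, without biological spread, and served only to recover read numbers.

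Under a random sampling model, ratio and p-value fix both counts. Of 7015 features, 6565 were solved from both, 88 from the ratios alone, and 362 had a ratio of 0 in all files. Estimates lay within 0.05 of a whole number for 100% of 5593 low values. The solving was tested on data simulated under the same model. That checks the solving and not whether the deposited p-values follow the model. Differences are log2 ratios of recovered reads on the scale of the deposited ratios, with 0.5 for a count of 0. A feature was measured when the higher library held at least 10 reads, and intervals are exact Clopper-Pearson intervals. Levels between genes are reads per kilobase of feature and 1000000 reads. Promoter sequences were read from RefSeq's genome by its own annotation. The unit was found to be a ratio where levels or counts had been planned for.

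The members and lists were chosen with earlier results of these data known. In the wider list the names of 4 genes were changed to those of the files, and 1 symbol was dropped because the files describe another protein under it. Named genes were the 7 members, the list genes past 2-fold against the library labelled wild type and 6 fixed pathway genes. The 5 profiles nearest to met17 were also named. The nearest mRNA features on either side, planned for each locus, were named for met17 only. Those of the other members were not described, though some were past 2-fold in a comparison with the library labelled wild type. Not all features that overlap a member were named. The genes zip1 and pof1 were named as regulators after their values were seen. Groups came from the genotype label. Python 3.11.15, numpy 2.4.6, scipy 1.17.1 and pandas 2.3.3 were used.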

Additional observations from a re-analysis of the deposited data

How the results depend on the processing

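No paired analysis was possible because each genotype has 1 library. The alternatives were 3 other scalings, other read filters (at least 100 reads, or none), 0.5 reads added to both libraries, a threshold of 1.5-fold, and the unnamed reference library as the control. The difference of the deposited ratios returned the reported values by construction, since the reads came from them, and is not counted. Of 280 recomputed gene differences, 255 stayed inside the counting interval of the reported value. The other 25 moved outside it, all under median centring or scaling to mRNA reads. Total scaling and 0.5 added reads could hardly move these values, so that many of the 255 were fixed in advance. None changed sign past 2-fold, which shifts of at most 0.062 could not bring about. Differences near 0, such as that of met6 for ssu72 against swd22, can take either sign under these scalings. With the unnamed reference library in place of the library labelled wild type, the count of the 7 genes at 2-fold went from 1 to 0 for swd22, for ssu72 and for clr4. At 1.5-fold the counts against the unnamed reference library were 3 for wild type, 2 for swd22 and 1 for clr4, and 1 gene, met17, was past it for ssu72 against clr4. Of all measured mRNA features, 21.3%, 27.5%, 23.5% and 10.1% were past 1.5-fold in these 4 comparisons. In the scalings the shift of every gene was at most 0.062 on the log2 scale. Depth was not the limit for the members, which held at least 447 reads, but biological spread is unknown with 1 library per genotype.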
